A study of Homo sapiens with 12 samples.

Results

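AGR2, AGR3, TFF1, TFF2, TFF3, CEACAM5, CEACAM6, MUC1 and LCN2 are 9 genes of mucus-producing and barrier epithelia, and their mRNA was followed through selection of 2 lung cancer lines in mice. A gene was taken where a probe set of the array carried exactly 1 gene symbol and that symbol was 1 of the 9. Each of the 9 had 1 such probe set, out of 18394 genes named in this way, and 8 passed the filter on dim probe sets that left 16922 genes for testing. AGR3 did not pass it. The genes were chosen by results of these same arrays, namely the selection changes of AGR2 in HTB56 and of TFF1 and CEACAM6 in A549. Their changes with selection, and the differences of these changes between the lines, are therefore a description, with a standard error and no p-value. Where such a change is said to be called or not, that states on which side of the threshold for all genes it lay and is no test of the members. For the members, only the contrasts of HTB56 with A549 at the same number of rounds are tested. These contrasts use the same arrays as the selection changes. Their p-values for AGR2, TFF1 and CEACAM6 are therefore not independent of the choice.

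RNA of 4 groups was measured on 3 Affymetrix whole-transcript arrays each. H3R is the lung carcinoma line HTB56, also known as Calu-6, after 3 rounds of in vivo selection for nodule formation in mouse lungs following intravenous injection, and H0R is the same line with 0 rounds. A3R is the lung adenocarcinoma line A549 after 3 such rounds, and A0R is that line with 0 rounds. All 4 groups were untreated with respect to 5-azacytidine, and no other agent or allele is given. The sources used here do not say whether a selected line is a clone or a mixed culture, nor how many mice it passed through. They also do not say whether the 3 replicates of a group were separate cultures, so the p-values measure only the spread between these samples, which may be technical.

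AGR2 and AGR3 belong to the protein disulphide isomerases, enzymes that form and rearrange disulphide bonds in the endoplasmic reticulum, and in mice AGR2 is needed for normal intestinal mucus. Trefoil factors are small secreted peptides, held in shape by disulphide bonds, that are released with mucins and take part in the repair of mucosal surfaces. CEACAM5 and CEACAM6 are adhesion proteins anchored in the outer leaflet of the cell membrane, MUC1 is a mucin that spans the membrane, and LCN2 is a secreted protein that binds bacterial iron carriers. Several of these genes are active in adenocarcinomas of the lung, gut, pancreas and breast.

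Promoters of the members whose levels differed most, each beside its relative in the family where there is one, show the sequence next to their start sites. The RefSeq promoter table of GRCh38.p14 runs from 250 bases before to 50 bases after a gene's start and matched 6 of the 9 members. Every sequence reads 5′ to 3′ along the gene's own strand. Capitals mark TGTTT, the core letters of forkhead factor motifs, in AGR2 (chr7:16804950-16805249, minus strand) and AGR3 (chr7:16881934-16882233, minus strand), and appear as AAACA where the letters lie on the opposite strand. In CEACAM6 (chr19:41755280-41755579, plus strand) and CEACAM5 (chr19:41708376-41708675, plus strand) they mark CACGTG, an E-box. In LCN2 (chr9:128149203-128149502, plus strand) they mark overlapping matches to GGG, 5 bases of any kind and CC, a loose form of the NF-kappaB motif.
AGR2: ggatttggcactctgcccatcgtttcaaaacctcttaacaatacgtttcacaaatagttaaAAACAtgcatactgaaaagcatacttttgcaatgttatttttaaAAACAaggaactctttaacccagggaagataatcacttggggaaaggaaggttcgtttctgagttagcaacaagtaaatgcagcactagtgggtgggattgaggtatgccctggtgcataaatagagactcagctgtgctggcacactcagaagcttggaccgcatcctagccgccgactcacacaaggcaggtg
AGR3: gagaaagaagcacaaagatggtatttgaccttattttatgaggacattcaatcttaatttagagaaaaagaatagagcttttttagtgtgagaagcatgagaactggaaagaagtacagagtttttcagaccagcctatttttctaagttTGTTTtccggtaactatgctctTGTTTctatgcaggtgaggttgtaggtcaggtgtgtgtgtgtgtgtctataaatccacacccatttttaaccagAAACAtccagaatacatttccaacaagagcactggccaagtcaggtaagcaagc
CEACAM6: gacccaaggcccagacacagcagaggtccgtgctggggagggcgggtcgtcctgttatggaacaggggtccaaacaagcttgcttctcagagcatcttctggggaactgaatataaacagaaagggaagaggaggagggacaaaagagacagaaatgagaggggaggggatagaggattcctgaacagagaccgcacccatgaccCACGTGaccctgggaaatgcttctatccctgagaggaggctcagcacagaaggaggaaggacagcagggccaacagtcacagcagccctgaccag
CEACAM5: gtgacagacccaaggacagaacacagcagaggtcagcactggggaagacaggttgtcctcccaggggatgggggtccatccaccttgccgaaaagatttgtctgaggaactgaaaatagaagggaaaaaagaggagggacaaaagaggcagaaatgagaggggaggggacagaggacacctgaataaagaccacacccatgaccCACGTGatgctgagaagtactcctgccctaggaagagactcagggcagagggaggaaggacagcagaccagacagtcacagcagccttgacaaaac
LCN2: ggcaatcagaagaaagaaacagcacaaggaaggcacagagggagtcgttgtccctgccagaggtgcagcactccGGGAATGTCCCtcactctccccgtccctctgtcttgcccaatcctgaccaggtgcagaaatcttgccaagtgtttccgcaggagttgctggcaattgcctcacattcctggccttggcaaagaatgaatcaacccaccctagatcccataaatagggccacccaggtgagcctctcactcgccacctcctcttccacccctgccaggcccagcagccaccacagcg

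Both strands were searched for each motif. TGTTT was found at 2 places in the AGR2 promoter, 189 and 145 bases before the start, and at 3 places in that of AGR3, 100, 78 and 4 bases before it. These letters occur in 44.4% of the 35116 promoters of the table, and CEACAM6 and LCN2 hold them at 2 places each as well, where they are not capitalised. CACGTG occurs in 7.26% of promoters and stands at almost the same place in CEACAM6 and CEACAM5, 45 and 46 bases before the start. The loose NF-kappaB motif occurs in 58.7% of promoters. Beyond LCN2, where matches begin 176 and 175 bases before the start, it was found among these 5 promoters in CEACAM5, 179 bases before it. TATAAA, the TATA box, occurs in 11.5% of promoters and was found in AGR3, 31 bases before the start, and in CEACAM6, 139 bases before it, where it overlaps the TGTTT match at 136 bases. The promoters of CEACAM6 and CEACAM5 were identical at 230 of 292 aligned bases (78.8%), and those of AGR2 and AGR3 at 151 of 275 (54.9%). A match is a stretch of letters and no evidence that a factor binds there.

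All values are log2 RMA signals, on which 1 unit is a doubling, and the array medians lay between 5.55 and 5.67. Arrays of 1 group correlated across probe sets at 0.988 to 0.995. A gene was called where limma's p-value, adjusted by the Benjamini-Hochberg method over 16922 genes, was below 0.05. For 28 genes that were bright in HTB56 and dim in A549, deviations were taken from each gene's median over all A549 arrays. Their median was 0.84 on A0R replicate 2 and between -0.15 and 0.07 on the other 5 A549 arrays. The members' A549 changes and their called differences between H0R and A0R are therefore also given without A0R replicate 2. In the opposite direction, 57 genes bright in A549 and dim in H0R were set against their H0R means. The median deviation was -0.17 to 0.04 on the H3R arrays and -0.06 to 0.10 on the H0R arrays. Of the 11 epithelial identity markers that were measured, the mean level per array was 6.86 to 6.95 in H3R, 6.81 to 6.91 in H0R, 7.99 to 8.09 in A3R and 8.002 to 8.06 in A0R. The 14 lung epithelial markers measured averaged 4.89 to 5.09 in H3R, 4.96 to 5.00 in H0R, 5.02 to 5.21 in A3R and 4.999 to 5.07 in A0R, below the array medians. In RNA of whole cultures, fewer cells that express a gene and less RNA of it per cell cannot be told apart.

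**Figure D1:**
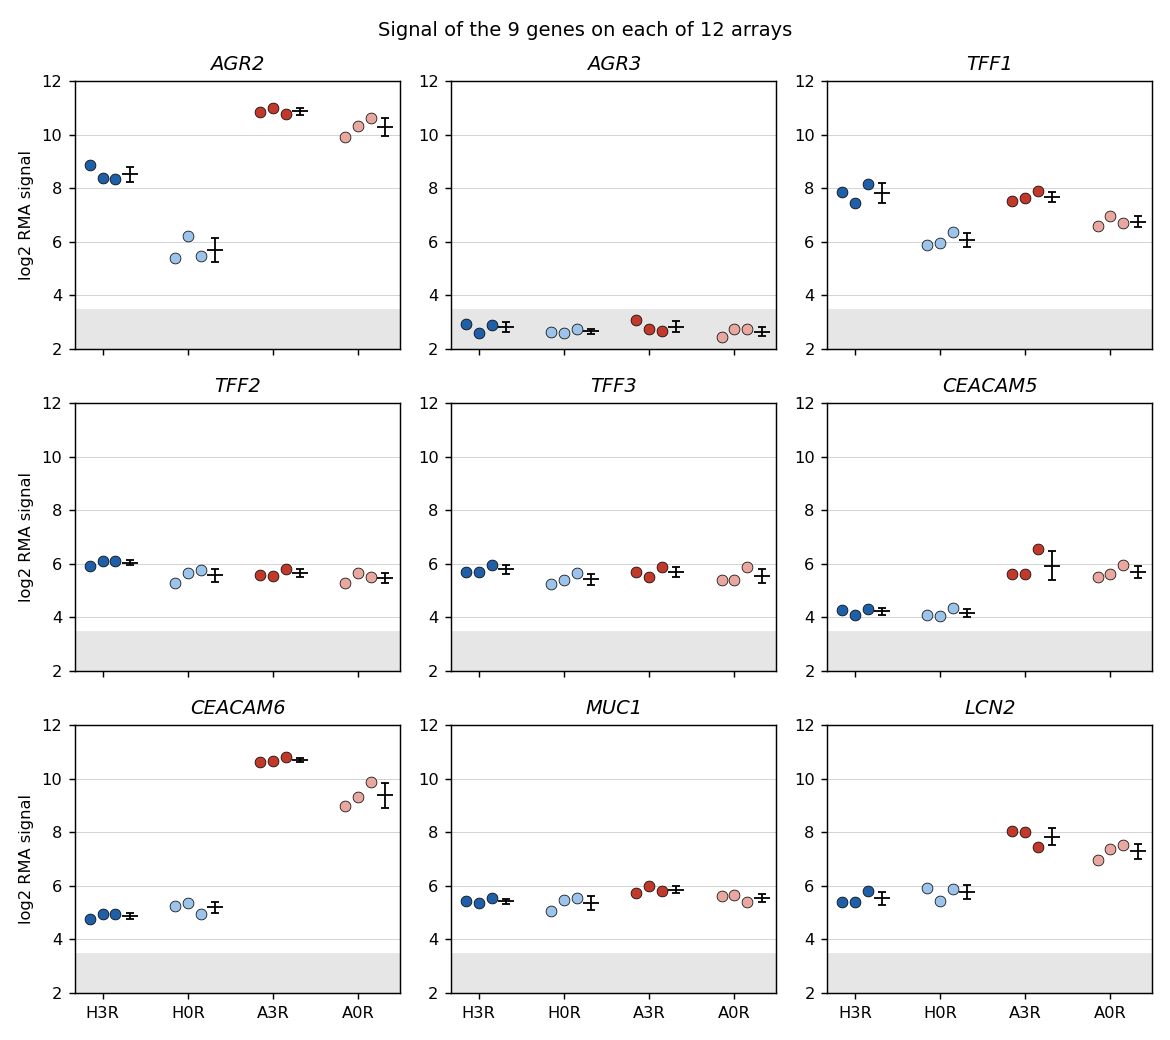
Log2 RMA signal of the 9 members on each of the 12 arrays, 1 panel per gene. Dots are arrays, bars are group means with their SD (n = 3), and the grey band lies below the 20th percentile of the arrays. AGR2 separates all 4 groups, CEACAM6 and LCN2 are brighter in both A549 groups, and AGR3 lies inside the band on all 12 arrays.

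AGR2 mRNA was abundant in A549 and low in unselected HTB56, and it was higher after selection in HTB56 by more than any other member was in either line. The signal was 8.85, 8.36 and 8.33 on the H3R arrays, against 5.39, 6.20 and 5.45 on the H0R arrays. All 3 H3R arrays lay above all 3 H0R arrays, and the H0R values were close to the array medians. The log2 change was 2.83 ± 0.22 (SE), or 7.13-fold, and it ran from 2.67 to 3.10 over 22 alternatives. Of these, 12 left out 1 array each, and others, such as a stricter threshold, could not move the size of a change. In A549 the signal was 10.83, 11.01 and 10.75 on the A3R arrays, against 9.91, 10.33 and 10.61 on the A0R arrays. These groups did not overlap either, but the change of 0.58 ± 0.22 (SE) was not called, and without A0R replicate 2 it was 0.60. The change in HTB56 minus that in A549 was 2.25 ± 0.31 (SE), or 2.23 without A0R replicate 2.

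The 4 groups stood in the order H0R, H3R, A0R and A3R for AGR2, from 5.68 ± 0.45 to 8.51 ± 0.29, 10.29 ± 0.35 and 10.87 ± 0.13 (mean ± SD, n = 3 each). No neighbours in that order overlapped, since the highest H3R array (8.85) lay below the lowest A0R array (9.91). Selected HTB56 cells thus held AGR2 mRNA at a level below that of either A549 group. AGR3, the neighbouring paralogue of AGR2 on chromosome 7, gave no measurable signal. Its values were 2.94, 2.59 and 2.89 in H3R, 2.61, 2.59 and 2.75 in H0R, 3.08, 2.75 and 2.66 in A3R and 2.44, 2.75 and 2.73 in A0R. They were above the 20th percentile of the array (3.44 to 3.51) on 0 of 12 arrays, so no difference in AGR3 was detectable.

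TFF1, a trefoil factor of the gastric surface that is also known as an oestrogen-induced gene of breast cancer cells, was higher after selection in both lines. The signal was 7.84, 7.43 and 8.17 in H3R, against 5.86, 5.96 and 6.37 in H0R. It was 7.53, 7.62 and 7.88 in A3R, against 6.57, 6.96 and 6.69 in A0R. Neither pair of groups overlapped. The log2 change was 1.75 ± 0.18 (SE) or 3.36-fold in HTB56 and 0.93 ± 0.18 (SE) or 1.91-fold in A549, and both were called. The call in A549 was lost when A0R replicate 1, A0R replicate 3, A3R replicate 2 or A3R replicate 3 was left out, with changes between 0.83 and 0.96, while without A0R replicate 2 the change was 1.05 and stayed called. The difference of the changes, 0.81 ± 0.26 (SE), was not called, but it was called with the replicate number as a block, after median centring, with array weights and without A3R replicate 3, H0R replicate 3 or H3R replicate 2. In the selected lines TFF1 averaged 7.81 ± 0.37 in H3R and 7.67 ± 0.18 in A3R (SD, n = 3 each), with overlapping arrays.

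TFF2, a trefoil factor of gastric mucous glands, and TFF3, the trefoil factor of goblet cells, lay close to the array medians. TFF2 was 5.92, 6.11 and 6.09 in H3R, against 5.29, 5.66 and 5.75 in H0R. The H3R arrays lay above the H0R arrays, and the change of 0.47 ± 0.14 (SE), or 1.39-fold, was called. That call was lost without H0R replicate 1, where the change was 0.34, and also without H3R replicate 2 or H3R replicate 3. In A549, TFF2 was 5.59, 5.55 and 5.81 in A3R, against 5.28, 5.65 and 5.52 in A0R, and the overlapping groups gave a change of 0.16 ± 0.14 (SE), or 0.24 without A0R replicate 2.

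TFF3 was 5.70, 5.69 and 5.97 in H3R, against 5.25, 5.38 and 5.65 in H0R. The lowest H3R array (5.69) was just above the highest H0R array (5.65), and the change of 0.36 ± 0.15 (SE) was not called, though it was called with the replicate number as a block and with array weights (0.38). TFF3 was 5.68, 5.49 and 5.88 in A3R, against 5.41, 5.40 and 5.86 in A0R, with overlapping arrays and a change of 0.13 ± 0.15 (SE), or 0.05 without A0R replicate 2. Over all 12 arrays the range was 2.32 for TFF1, 0.83 for TFF2 and 0.71 for TFF3. The 3 trefoil genes lie side by side on chromosome 21, and the selection changes of TFF2 and TFF3 were smaller than those of TFF1 in both lines.

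CEACAM6 was high in A549 and higher still after selection, and it was low in HTB56. Its signal was 10.63, 10.67 and 10.80 in A3R, against 8.97, 9.30 and 9.88 in A0R, and the groups did not overlap. The log2 change was 1.31 ± 0.18 (SE), or 2.49-fold, and was called. It ran from 1.11 to 1.56 over the 22 alternatives, with 1.27 without A0R replicate 2. In HTB56 the signal was 4.76, 4.93 and 4.93 in H3R, against 5.26, 5.37 and 4.96 in H0R. All H3R arrays lay below the H0R arrays, but the change of -0.32 ± 0.18 (SE) was not called and both groups were below the array medians. The change in HTB56 minus that in A549 was -1.64 ± 0.26 (SE), or -1.59 without A0R replicate 2, beside 2.25 for AGR2.

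CEACAM5, the carcinoembryonic antigen, was 5.62, 5.63 and 6.54 in A3R, against 5.52, 5.61 and 5.96 in A0R. The groups overlapped, the change was 0.24 ± 0.21 (SE), and it became -0.07 without A3R replicate 3 and 0.19 without A0R replicate 2. In HTB56 the signal was 4.29, 4.07 and 4.31 in H3R, against 4.08, 4.06 and 4.35 in H0R, a change of 0.06 ± 0.21 (SE). CEACAM5 and CEACAM6 are similar in sequence, as their promoters above also are, and how far probes of one gene take up RNA of the other was not tested.

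MUC1 signal was 5.75, 5.99 and 5.82 in A3R, against 5.62, 5.65 and 5.39 in A0R. The A3R arrays lay above the A0R arrays, and the change of 0.30 ± 0.13 (SE), or 0.35 without A0R replicate 2, was not called. In HTB56 the signal was 5.42, 5.34 and 5.53 in H3R, against 5.05, 5.48 and 5.55 in H0R, with a change of 0.07 ± 0.13 (SE) and overlapping arrays. LCN2 was 8.04, 8.02 and 7.46 in A3R, against 6.96, 7.37 and 7.52 in A0R. One A3R array lay below the highest A0R array, and the change of 0.56 ± 0.19 (SE), or 0.60 without A0R replicate 2, was not called. In HTB56, LCN2 was 5.40, 5.38 and 5.82 in H3R, against 5.93, 5.45 and 5.89 in H0R, with a change of -0.22 ± 0.19 (SE). The difference between the lines, -0.78 ± 0.27 (SE), was not called, but it was called with array weights and without A3R replicate 3 or H3R replicate 3.

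**Figure D2:**
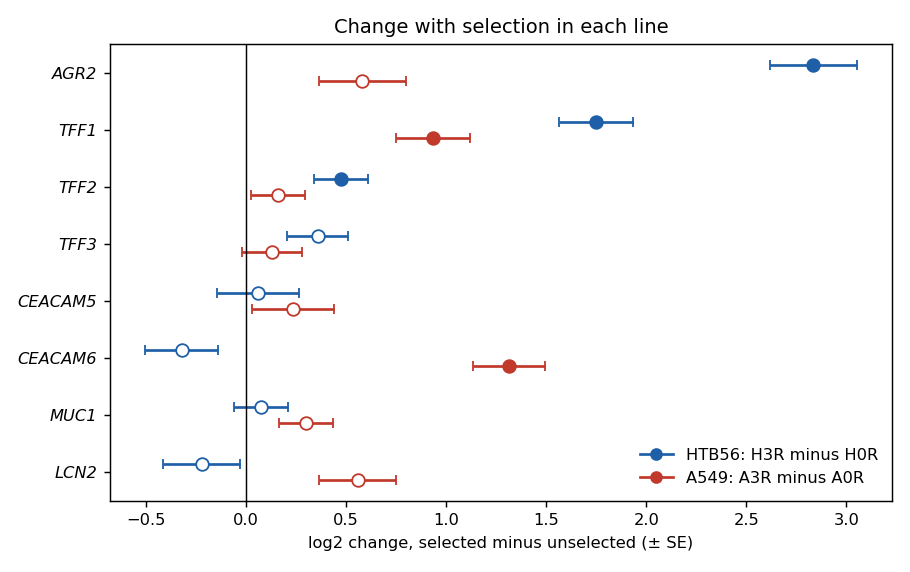
Log2 change with selection (3R minus 0R) of the 8 members that passed the filter, in HTB56 and in A549, with its SE. Filled points were called. AGR2 at 2.83 and TFF1 at 1.75 lie farthest to the right in HTB56, and CEACAM6 at 1.31 does so in A549.

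Counted together, 3 of the 8 members were called higher and 0 lower in H3R against H0R, where 8.58% of all tested genes were called higher and 10.9% lower. In A3R against A0R, 2 of the 8 were called higher and 0 lower, beside 0.934% and 0.745% of all genes (1.68% in either direction). The difference of the changes was called higher for 1 member and lower for 1, beside 5.18% and 6.59%. Since these contrasts chose the members, nothing is read from the counts. The median change was 0.22 in HTB56 and 0.43 in A549 over the 8 members, and 0.02 and -0.01 over all genes. All 3 selected arrays lay above the 3 unselected ones for AGR2, TFF1, TFF2 and TFF3 in HTB56, where 16.5% of tested genes did so. AGR2, TFF1, CEACAM6 and MUC1 did so in A549, where the share of tested genes was 6.28%. For 0 members did all A3R arrays lie below all A0R arrays, beside 6.42% of tested genes, and for CEACAM6 all H3R arrays lay below all H0R arrays, beside 17.8%.

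Markers of other cell types were read beside the HTB56 changes. Of 10 tested fibroblast markers, 4 (40%) were called higher in H3R than in H0R and 0 lower, beside 8.58% and 10.9% of all genes, with LUM at 1.78, COL1A1 at 1.41, COL3A1 at 1.29 and PDGFRA at 0.71. The mean level per array of the 13 fibroblast markers was 5.25 to 5.42 in H3R and 4.77 to 5.03 in H0R, while DCN, FAP and POSTN stayed under the 20th percentile on all arrays of both groups. Of 13 tested leukocyte markers, LYZ (1.66) and CD68 (0.65), or 15.4%, were called higher, beside the same 8.58%, and PTPRC, the common leukocyte antigen, FCGR3A and S100A8 stayed under that percentile in all 4 groups. The mean of 16 leukocyte markers was 4.77 to 5.00 in H3R and 4.69 to 4.74 in H0R. Of 9 tested endothelial markers, 0 were called by limma, with 1 at an unadjusted p below 0.05, and 1 was called with array weights or on the arrays compared. In A549, with 0.934% of all genes called higher, C1R (0.81) was the 1 of 10 tested fibroblast markers called higher (2 with the replicate block, or without H0R replicate 3 or H3R replicate 2), and their mean over 13 was 5.34 to 5.44 in A3R and 5.09 to 5.26 in A0R. The part of these markers in the members' changes was not tested.

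Among the 8 tested members, the unselected lines differed most in AGR2 and CEACAM6. In H0R against A0R, 0 of the 8 tested members were called higher and 5 lower, where 24.9% of all genes were called higher and 20.2% lower. AGR2 was 24.4-fold lower in H0R, at 5.68 ± 0.45 against 10.29 ± 0.35 in A0R (SD, n = 3 each; log2 change -4.61 ± 0.22 SE, limma adjusted p = 2.68e-10). CEACAM6 was 18.2-fold lower, at 5.20 ± 0.22 in H0R and 9.38 ± 0.46 in A0R (SD, n = 3 each; limma adjusted p = 1.03e-10). CEACAM5 was 2.89-fold lower (limma adjusted p = 2e-05), LCN2 2.88-fold lower (limma adjusted p = 1.09e-05) and TFF1 1.6-fold lower (limma adjusted p = 0.00721). The arrays of the lines did not overlap for these 5 genes. Without A0R replicate 2 the log2 changes were -4.58 for AGR2, -4.23 for CEACAM6, -1.57 for CEACAM5, -1.48 for LCN2 and -0.56 for TFF1, and all 5 were still called. TFF2 (0.08, limma adjusted p = 0.665), TFF3 (-0.12, limma adjusted p = 0.551) and MUC1 (-0.20, limma adjusted p = 0.265) were not called.

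Between the selected lines, H3R against A3R, 1 member was called higher and 5 lower, beside 24.9% and 19.7% of all genes. CEACAM6 was 56.7-fold lower in H3R, at 4.87 ± 0.10 against 10.70 ± 0.09 in A3R (SD, n = 3 each; limma adjusted p = 4.81e-12). AGR2 was 5.1-fold lower (limma adjusted p = 5.14e-07), LCN2 4.94-fold lower (limma adjusted p = 1.69e-07) and CEACAM5 3.26-fold lower (limma adjusted p = 7.6e-06). MUC1 was 1.34-fold lower (limma adjusted p = 0.0182) and TFF2 1.31-fold higher (limma adjusted p = 0.0275). The MUC1 call was lost without A3R replicate 2 or H3R replicate 2, and the TFF2 call without A3R replicate 1, A3R replicate 2, H3R replicate 2 or H3R replicate 3. TFF1, called lower in H0R than in A0R, had a difference of 0.14 ± 0.18 (SE) between the selected lines, with a limma adjusted p of 0.593. The median log2 difference of the 8 members was -1.10 between the unselected and -1.06 between the selected lines, against -0.01 and 0.01 over all genes. Both line contrasts use different arrays of the same lines.

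Genes that work with the members were read from lists of fixed membership, chosen with earlier results of these data known. The p-values of list genes and the shares of a list called are therefore a description and no independent test. Mucins are the large glycoproteins of mucus, with which trefoil factors are released. Of 14 other mucin genes tested, 0 were called in H3R against H0R by limma, and 0 had an unadjusted p below 0.05. In A3R against A0R, 1 rose and 0 fell (7.14%, beside 1.68% of all genes). In H3R against H0R 19.5% of all genes were called. Their median change was 0.04 in HTB56 and 0.15 in A549. That gene was MUC13, a membrane-bound mucin of the gut, at 9.59 ± 0.32 in A3R and 8.15 ± 0.69 in A0R (SD, n = 3 each; log2 change 1.45 ± 0.25 SE, limma adjusted p = 0.0076), and without A0R replicate 2 the change was 1.36 (limma adjusted p = 0.0443). MUC13 was also lower in H0R than in A0R, at a log2 difference of -3.68 (limma adjusted p = 1.67e-08), or -3.77 without A0R replicate 2. In that contrast 0 of the 14 were called higher and 2 lower (14.3%, beside 45.1% of all genes). Among 23 tested enzymes that build mucin sugar chains, GALNT5, which attaches the first sugar, rose by 0.89 in A3R (limma adjusted p = 0.0116). Without A0R replicate 1, A0R replicate 2 or A3R replicate 2 that call was lost. The 1 call of 23 in A549 (4.35%, beside 1.68% of all genes) became 0 without A0R replicate 1 or A3R replicate 2 and 2 without A0R replicate 3. In H3R, 0 of the 23 rose and 2 fell (8.7%, beside 19.5% of all genes). GALNT12 fell by 0.73 (limma adjusted p = 0.00223). GCNT3, a branching enzyme, fell by 0.42 (limma adjusted p = 0.0302), and that call was lost without H0R replicate 2, H0R replicate 3, H3R replicate 1 or H3R replicate 2. The median change of the 23 was 0.05 in HTB56 and -0.06 in A549.

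Other disulphide isomerases and chaperones share the endoplasmic reticulum with AGR2. Of 25 tested disulphide isomerases and folding partners, 1 rose and 4 fell in H3R against H0R, and 20% were called, near the 19.5% of all genes (8.58% higher and 10.9% lower). HYOU1, a chaperone, was 9.87 ± 0.10 in H3R and 10.54 ± 0.09 in H0R (SD, n = 3 each; log2 change -0.67 ± 0.11 SE, limma adjusted p = 0.000416). PDIA6, a disulphide isomerase, fell by 0.46 (limma adjusted p = 0.0033). HSPA5, the main chaperone of that compartment, fell by 0.35 (limma adjusted p = 0.0124), which was lost without H0R replicate 3, and TMX4 rose by 0.31 (limma adjusted p = 0.0461), a call that outlasted the loss of A0R replicate 3 or H0R replicate 3 and of no other array. With the replicate number as a block, 8 of the 25 were called, and 3 without H0R replicate 1, H0R replicate 2, H3R replicate 1 or H3R replicate 2. The median change of the 25 was -0.06 in HTB56 and 0.14 in A549. In A549, 0 of the 25 were called by limma and 5 had an unadjusted p below 0.05.

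Of 31 tested transcription factors of secretory and mucosal epithelia, 5 rose and 1 fell in H3R against H0R, or 19.4%, near the 19.5% of all genes (8.58% higher and 10.9% lower). KLF4, a factor of goblet cell and surface epithelium differentiation, was 8.25 ± 0.14 in H3R and 7.45 ± 0.18 in H0R (SD, n = 3 each; limma adjusted p = 0.00181). FOXA2, a forkhead factor of foregut and airway epithelium, was 8.69 ± 0.08 in H3R and 8.03 ± 0.08 in H0R (SD, n = 3 each; limma adjusted p = 0.000263). TFAP2A rose by 0.57 (limma adjusted p = 0.0475), a call lost after median centring or cyclic loess and without A0R replicate 3, A3R replicate 3, any H0R array, H3R replicate 2 or H3R replicate 3. TFAP2C fell by 0.60 (limma adjusted p = 0.00444). In A549, 0 of the 31 were called by limma and 5 had an unadjusted p below 0.05, while 1 was called with the replicate number as a block, with array weights, or without A0R replicate 3 or A3R replicate 2. The median change of the 31 was 0.01 in HTB56 and 0.06 in A549.

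Between the lines, 4 of the 31 factors were called higher and 11 lower in H0R against A0R, and 5 higher and 9 lower in H3R against A3R. Over both directions these shares, 48.4% and 45.2%, were near the 45.1% and 44.6% of all genes. By direction, 24.9% of all genes were called higher and 20.2% lower in H0R against A0R. In H3R against A3R, 24.9% were called higher and 19.7% lower. The factors thus had more calls lower than higher, unlike all genes. EHF, an epithelial ETS factor, had a log2 difference of -3.85 in H0R against A0R (limma adjusted p = 1.58e-09) and of -4.35 in H3R against A3R (limma adjusted p = 5.45e-10). ELF3, another, had -3.68 in H0R against A0R (limma adjusted p = 7.1e-10) and -3.56 in H3R against A3R (limma adjusted p = 1.35e-09). SPDEF, a factor of goblet cells, had -2.35 in H3R against A3R (limma adjusted p = 6.14e-07). These 3 were lower in HTB56, as AGR2, CEACAM6 and LCN2 were. Other factors were higher in HTB56. In H0R against A0R, TFAP2C was higher by 1.06 (limma adjusted p = 9.22e-06), CREB3L1 by 0.92 (limma adjusted p = 0.000716) and SOX9 by 0.64 (limma adjusted p = 0.000929). In H3R against A3R, KLF4 was higher by 1.06 (limma adjusted p = 4.93e-05), SOX9 by 0.71 (limma adjusted p = 0.000394) and TFAP2C by 0.60 (limma adjusted p = 0.00163). Without A0R replicate 2 the differences between H0R and A0R were -3.86 for EHF, -3.65 for ELF3 and 0.73 for SOX9.

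**Figure D3:**
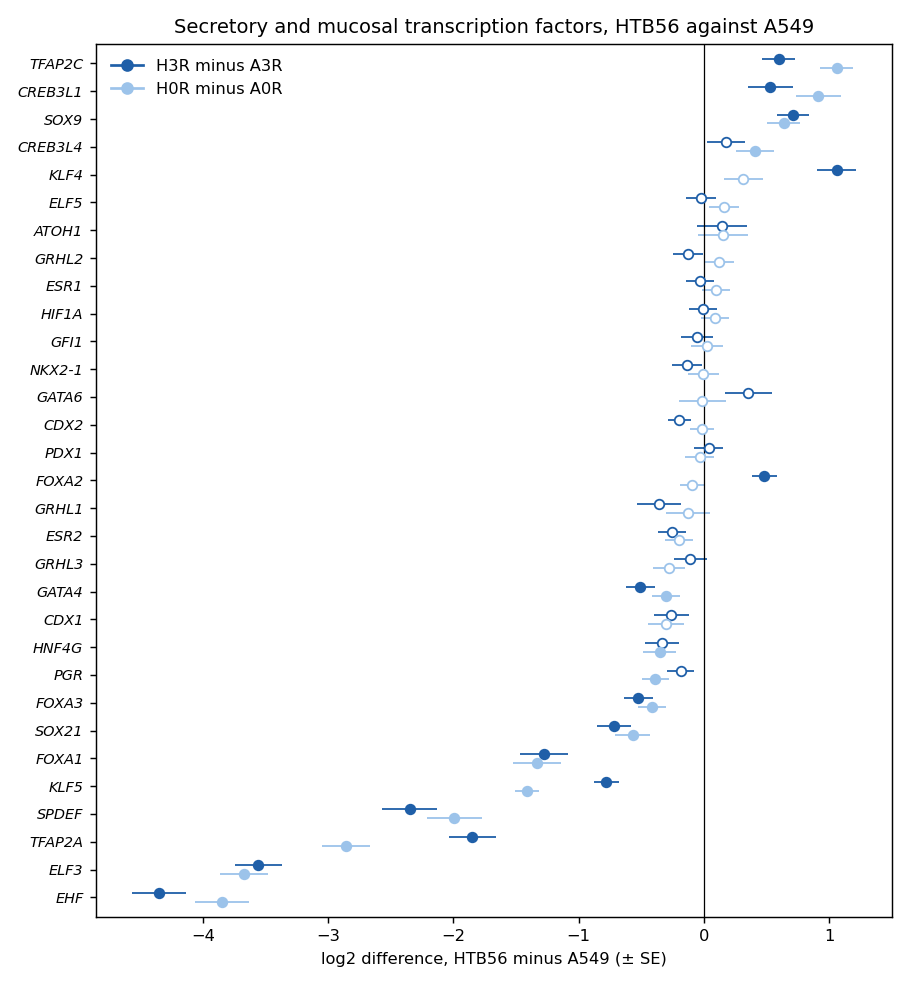
Log2 difference between the lines for 31 transcription factors of secretory and mucosal epithelia, H3R minus A3R and H0R minus A0R, with its SE. Filled points were called. EHF at -4.35 and ELF3 at -3.56 between the selected lines lie far to the left, and SOX9 at 0.71 lies to the right of 0.

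Other products of mucosal epithelia included both called rises and called falls. Of 40 tested secreted and apical proteins, 3 rose and 0 fell in H3R against H0R, and 1 rose and 2 fell in A3R against A0R, a share of 7.5% in each line, beside 19.5% of all genes in HTB56 and 1.68% in A549. The median change of the 40 was 0.10 in HTB56 and -0.02 in A549. TSPAN8, a tetraspanin of gastrointestinal epithelium, was 6.36 ± 0.35 in H3R and 3.54 ± 0.15 in H0R (SD, n = 3 each; log2 change 2.82 ± 0.17 SE, limma adjusted p = 4.83e-08), beside 2.83 for AGR2. The H0R mean lay just above the 20th percentile of the arrays, and the A0R mean (3.41) below it. Lysozyme, LYZ, rose by 1.66 in H3R (limma adjusted p = 1.75e-05) and VSIG1, a junction protein of stomach, by 0.59 (limma adjusted p = 0.00891). The VSIG1 call was lost without H3R replicate 2. In A549, TSPAN8 rose by 0.83 (limma adjusted p = 0.0259), a call that needed A0R replicate 1 and all 3 A3R arrays. SLPI, a secreted protease inhibitor of airways, was 8.20 ± 0.33 in A3R and 10.16 ± 0.22 in A0R (SD, n = 3 each; limma adjusted p = 3.48e-05). Without A0R replicate 2 its change was -2.02 and that of TSPAN8 0.96. The other called fall was DEFB1, a defensin, at 3.53 ± 0.26 in A3R and 4.22 ± 0.24 in A0R (SD, n = 3 each). DEFB1 was above the 20th percentile on 4 of 12 arrays and passed the filter through A0R, where it is high, so nothing is read from its call. Without A0R replicate 1, A3R replicate 2 or A3R replicate 3, 1 of the 40 was called in A549.

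None of 9 other CEACAM genes tested was called by limma in either line, with 0 at an unadjusted p below 0.05 in A549 and 2 in HTB56. In HTB56, 2 were called with array weights, and 1 on the arrays compared or without A0R replicate 1, A0R replicate 3 or H3R replicate 1. In H0R against A0R, 0 of the 9 were called higher and 3 lower (33.3%, beside 45.1% of all genes). CEACAM1 was lower in H0R than in A0R, as CEACAM5 and CEACAM6 were, at a log2 difference of -1.21 (limma adjusted p = 0.000164), or -1.22 without A0R replicate 2. Among 18 tested receptors and binding partners of the members, ICAM1 rose by 1.25 (limma adjusted p = 0.00217) and ERBB3 fell by 1.02 (limma adjusted p = 0.000257) in A3R against A0R, where 11.1% of the list was called beside 1.68% of all genes. Without A0R replicate 2 these changes were 1.24 and -0.99. In H3R against H0R, 2 rose and 2 fell (22.2%, beside 19.5% of all genes). CXCR4, a chemokine receptor proposed to respond to TFF2, was 5.27 ± 0.08 in H3R and 4.44 ± 0.19 in H0R (SD, n = 3 each; limma adjusted p = 0.00234). LINGO2, a proposed receptor of TFF3, was 3.66 ± 0.03 in H3R and 4.94 ± 0.08 in H0R (SD, n = 3 each; limma adjusted p = 0.00027).

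**Figure D4:**
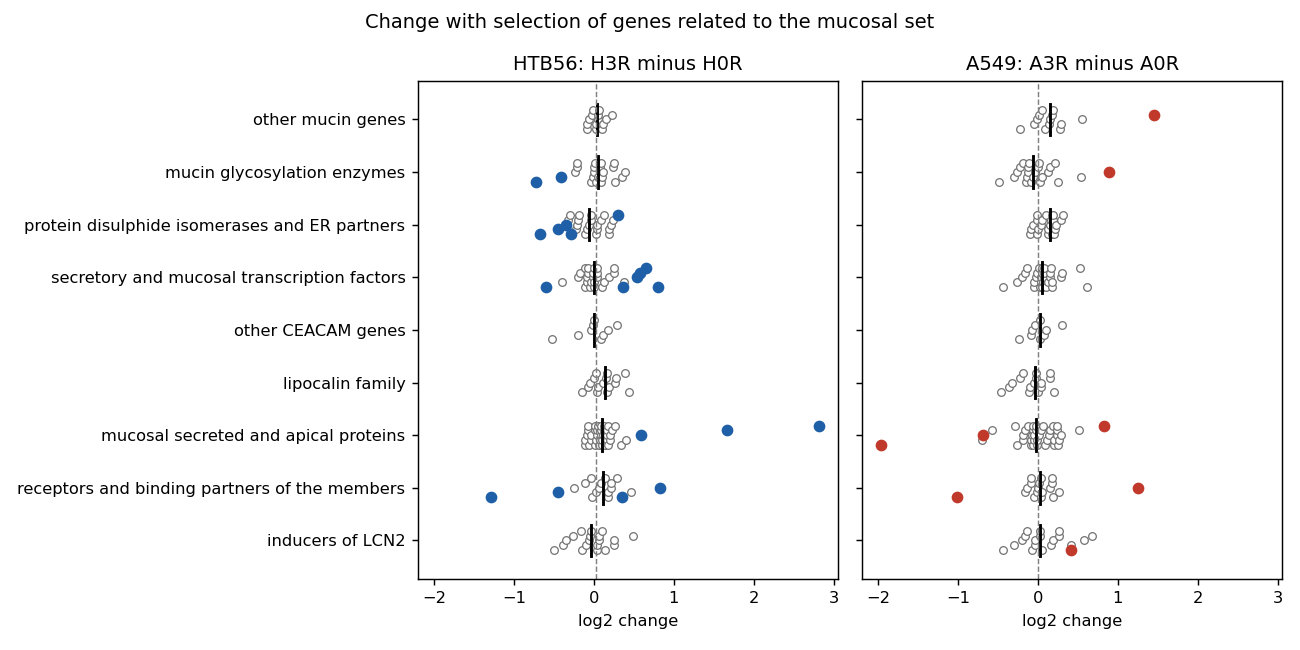
Log2 change with selection of the tested genes in 9 lists of related genes, for HTB56 and A549. Each dot is a gene, filled where called, the bar is the list's median and the dashed line the median of all genes (0.02 in HTB56 and -0.01 in A549). TSPAN8 at 2.82 in HTB56 and SLPI at -1.96 in A549 stand farthest from 0 among the secreted and apical proteins.

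The genes beside AGR2 and CEACAM6 on their chromosomes included 0 that were called higher with selection. The 5 tested genes on either side were taken in the RefSeq order of GRCh38.p14. Around AGR2, 0 of 10 were called higher in H3R and 5 lower, beside 8.58% and 10.9% of all genes. The falls lay between -0.91 for SOSTDC1 (limma adjusted p = 0.002) and -0.32 for BZW2 (limma adjusted p = 0.0182). AHR, a ligand-activated transcription factor and the next tested gene after AGR2, was at -0.70 (limma adjusted p = 0.00019). Leaving out single arrays left 2 to 5 of these calls, with 2 without H0R replicate 3, H3R replicate 1 or H3R replicate 2, and AHR and SOSTDC1 were among them each time. Around the trefoil genes, SLC37A1 alone was called higher in H3R, by 0.40 (limma adjusted p = 0.0146), and not without H0R replicate 3, H3R replicate 1 or H3R replicate 2. Around CEACAM5 and CEACAM6, 0 of 10 were called in either line, and their changes in A549 lay between -0.17 and 0.08. In A549, 0 of 10 were called at each of the 5 loci. TSPAN13, beside AGR2, had the largest A549 value among the AGR2 neighbours, 0.71 (limma adjusted p = 0.161), and it was called higher in A549 with the replicate block or without A0R replicate 3.

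**Figure D5:**
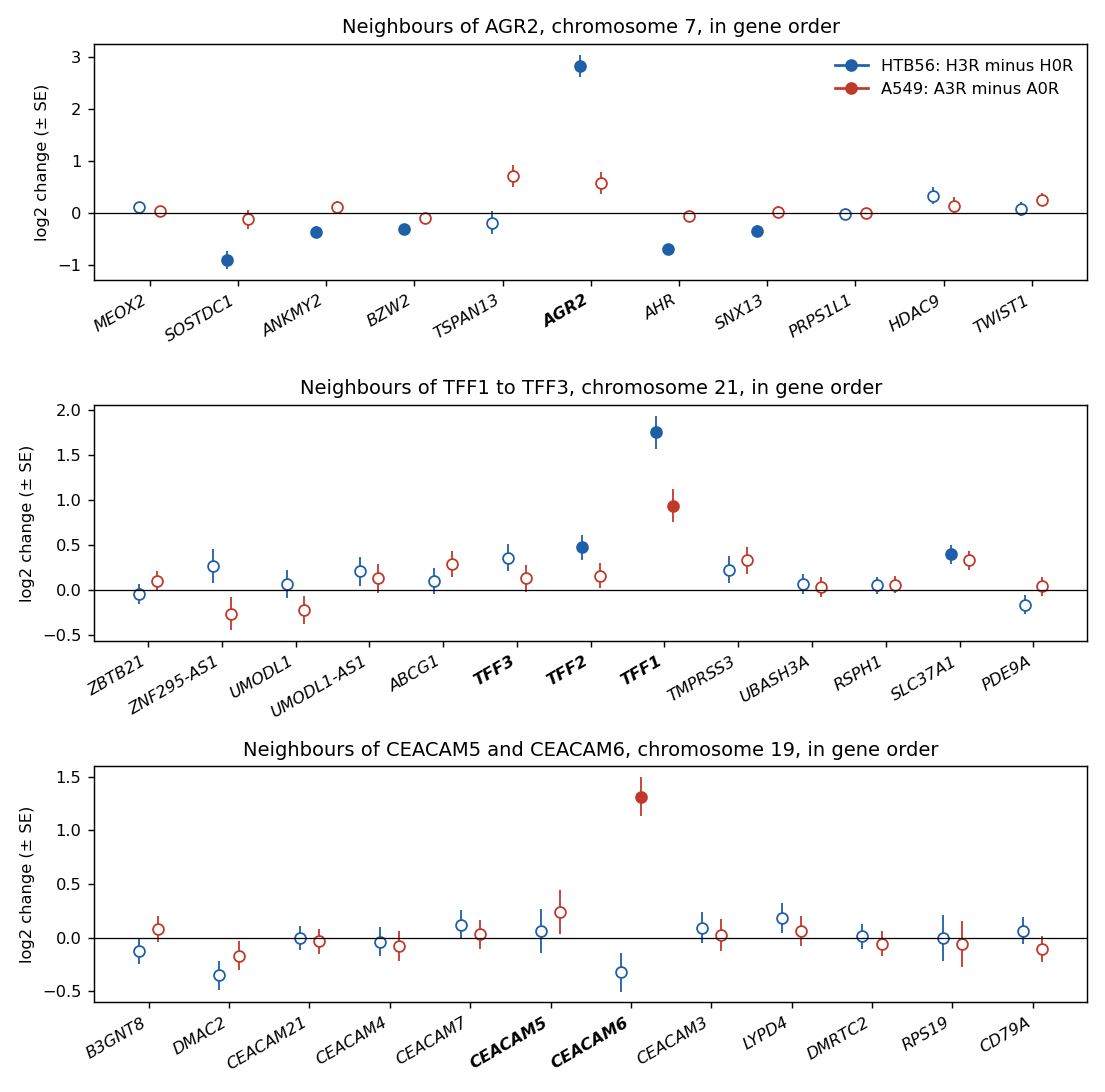
Log2 change with selection of the 5 tested genes on either side of AGR2, of the trefoil genes and of CEACAM5 and CEACAM6, in chromosome order, for HTB56 and A549. Filled points were called. AGR2 at 2.83 in HTB56 and CEACAM6 at 1.31 in A549 stand above neighbours that run from -0.91 to 0.33 around AGR2 in HTB56 and from -0.17 to 0.08 around CEACAM6 in A549.

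The genes most like AGR2, TFF1, CEACAM6 and LCN2 were ranked by Pearson's r over the 12 arrays, among 5796 genes with a range of at least 1. These arrays fall into 4 groups, so r mainly reads the order of the group means. APH1B (0.988), TMTC3 (0.987), KIF16B (0.983), ALDH6A1 (0.981) and MPPE1 (0.981) were closest to AGR2. KIF16B, a kinesin of endosomes, averaged 7.23 in H3R, 5.93 in H0R, 8.07 in A3R and 7.99 in A0R, the same order as AGR2 over a narrower range. P4HA2 (0.954), an enzyme of collagen proline hydroxylation, was closest to TFF1, followed by PXDC1 (0.910), LONRF3 (0.904), PCDHB2 (0.901) and SEC23B (0.888). CEACAM6 was matched by GALNT5 (0.997), UPK1B (0.995), FAM114A1 (0.994), CCL2 (0.993) and ZBTB38 (0.993). CCL2, a chemokine for monocytes, averaged 5.97 in H3R, 5.99 in H0R, 10.76 in A3R and 9.32 in A0R. LCN2 was matched by STEAP1 (0.986), SLC30A4 (0.984), PLA2R1 (0.984), CCDC198 (0.982) and FGD1 (0.978).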

How the data were processed

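Total RNA of A549 and HTB56 cells was labelled with biotin by the whole-transcript protocol and hybridised to 12 arrays, per the labels' protocols. The deposited values are log2 signals, and the submitters' processing notes name RMA and Affymetrix Expression Console as the authors' tools. Their versions are not given in the notes. RMA subtracts background, gives all arrays 1 distribution and combines the probes of a set, which compresses dim differences and would hide a uniform shift of all mRNA. Scanner files were not used here.

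Of 33297 probe sets, 19460 had 1 gene symbol in the platform annotation, 1754 several and 12083 none. Probe sets of Y-linked genes (24) were left out. A probe set was kept above its array's 20th percentile on at least 3 arrays, with the brightest per gene. Tests used limma 3.58.1 with R 4.3.3 (lmFit, then eBayes, 1 mean per group over 12 arrays, two-sided, Benjamini-Hochberg adjustment over 16922 genes, threshold 0.05). The fit was tested on simulated data. Tables, figures and promoter searches used Python 3.11.15, pandas 2.3.3, matplotlib 3.10.9 and Biopython 1.88.

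The members and gene lists were chosen with earlier results of these data known. Named genes were every member, per list and comparison up to 3 called genes each way with the largest change, and per key member the 5 genes with the highest r. Not every list gene that met this rule is given, above all for the contrasts of HTB56 with A549. The choice among them was made with their values known. Cell type markers and chromosome neighbours named beyond this rule were chosen after their values were seen. Other lists covered lipocalins and inducers of LCN2.

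Groups share replicate numbers. Same-numbered arrays deviated together from their group means (r of 0.16 to 0.55 across genes, against -0.42 to 0.20 for other pairs). Each of the 12 arrays was closest to one of its own number. The numbers thus pair the samples, which comes from the data and not from the labels. Alternatives were the dim filter, the probe set rule, median centring, cyclic loess, a fit on the arrays compared, array weights, the replicate block, a trended robust eBayes, a 0.01 threshold and leaving out each array.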

Additional observations from a re-analysis of the deposited data

Results flagged for a closer look

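Of 47 members and named genes of the related lists, 31 had selection changes whose difference between the lines (HTB56 minus A549, log2 scale) passed limma's threshold over all genes. Many were named because they were called, so this count is not read against the share of all genes, and for AGR2 and CEACAM6, chosen by changes that enter the difference, it is a description and no test. AGR2 differed by 2.25 (changes of 2.83 in HTB56 and 0.58 in A549) and CEACAM6 by -1.64 (-0.32 in HTB56 and 1.31 in A549). SLPI differed by 2.30 (0.34 in HTB56 and -1.96 in A549), TSPAN8 by 1.99 (2.82 in HTB56 and 0.83 in A549), LYZ by 1.58 (1.66 in HTB56 and 0.08 in A549) and ERBB3 by 1.19 (0.17 in HTB56 and -1.02 in A549). MUC13 differed by -1.30 (0.15 in HTB56 and 1.45 in A549). Of the epithelial markers, EPCAM differed by 1.44 (1.02 in HTB56 and -0.42 in A549) and KRT19 by -1.43 (-0.30 in HTB56 and 1.14 in A549). The difference was also positive for COL1A1 1.56, COL3A1 1.15, CD68 1.10, TFAP2A 1.01, VSIG1 0.87, PDGFRA 0.85, CDH1 0.81, KLF4 0.75, DEFB1 0.73, KLF5 0.63, FOXA2 0.58 and KRT8 0.48, and negative for LINGO2 -1.43, NFKBIZ -0.95, HYOU1 -0.86, GALNT5 -0.84, KRT7 -0.80, CLDN4 -0.72, C1R -0.66, HSPA5 -0.55, PDIA4 -0.51 and PDIA6 -0.45. DEFB1 is among the 31 but passed the filter through A0R, where it is high, so nothing is read from its difference. The A3R and A0R means of LINGO2 lay below the 20th percentile of the arrays, so its A549 change is one between dim values. Of the 31, 20 passed the threshold without each single array in turn and 11 did not. The difference of C1R was lost without A0R replicate 2, H0R replicate 1, H0R replicate 3, H3R replicate 1 or H3R replicate 2. That of CDH1 was lost without A0R replicate 1, H0R replicate 1, H0R replicate 2 or H3R replicate 3, and that of TFAP2A without A0R replicate 1, A3R replicate 2, H0R replicate 2 or H3R replicate 2. The number of single arrays whose loss ended the call was 8 for MUC13, 8 for GALNT5, 9 for PDGFRA, 9 for DEFB1, 9 for KLF4, 10 for KRT8, 10 for PDIA6 and 11 for CLDN4. Median centring also ended the calls of CLDN4, DEFB1, KLF4, KRT8 and PDIA6, and cyclic loess those of CLDN4 and KLF4.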

How the results depend on the processing

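Over 22 alternatives, the calls of AGR2 and TFF1 in HTB56, of CEACAM6 in A549 and of AGR2 and CEACAM6 in the difference between the lines were kept. Members called in A3R against A0R were 2, with 1 at a threshold of 0.01 and 1 to 2 when single arrays were left out. In H3R against H0R they were 3, with 2 to 3 when single arrays were left out. In the difference between the lines they were 2, with 4 under array weights and 2 to 4 when single arrays were left out. With the replicate block, TFF3 (0.36) was called in H3R against H0R and TFF1 (0.81) in the difference between the lines, and the block changed no other member's call. Members called in H0R against A0R stayed at 5 without any single array, and in H3R against A3R they were 4 to 6. Uncalled differences turned sign for TFF2 in H0R against A0R (-0.018 without A0R replicate 1, -0.007 without H0R replicate 3, up to 0.22 without H0R replicate 1), for TFF3 there (0.027 without A0R replicate 3, down to -0.24 without H0R replicate 3) and for TFF1 in H3R against A3R (-0.0031 under array weights, -0.042 without H3R replicate 3, up to 0.33 without H3R replicate 2). Over all genes, the 284 calls in A549 became 546 with the replicate block, 172 on the arrays compared, 133 at 0.01 and 167, 174 or 175 without A0R replicate 1, A0R replicate 2 or A3R replicate 2. The 3298 calls in HTB56 became 2041 at 0.01, and the 1992 in the difference became 3447 with the block and 1027 at 0.01. Why these values moved was not tested. The number of arrays, 3 per group, limits the precision, and AGR3 was too dim to be read.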

Other observations

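Of 19 tested inducers of LCN2, 1 was called in A3R against A0R, STAT3 at 0.41 (limma adjusted p = 0.0408), a call lost without any single one of the 12 arrays, and 2 were called with the replicate block. The shares of all genes called were 1.68% in A549 and 19.5% in HTB56. Between the lines, 4 were higher and 7 lower in H0R against A0R (57.9%, beside 45.1% of all genes). In H3R against A3R, 6 were higher and 8 lower (73.7%, beside 44.6% of all genes). In H3R against H0R, limma called 0 of the 19, with 5 at an unadjusted p below 0.05, and 3 were called with the replicate block or array weights, 2 on the arrays compared, and 1 after cyclic loess or without A0R replicate 2, H0R replicate 1 or H0R replicate 2. TLR4, the endotoxin receptor, was among those higher in H0R than in A0R, by 5.23 (limma adjusted p = 4.19e-10; 5.67 without A0R replicate 2). It was also higher in H3R than in A3R, by 5.17 (limma adjusted p = 6.47e-10). LCN2 itself was lower in HTB56, as were 7 of the inducers in the first contrast and 8 in the second. NFKBIA had a log2 difference of -1.27 in H0R against A0R (limma adjusted p = 2.62e-07) and of -1.59 in H3R against A3R (limma adjusted p = 2.86e-08). CEBPD had -0.81 in H0R against A0R (limma adjusted p = 5.65e-05) and STAT3 -1.35 in H3R against A3R (limma adjusted p = 2.38e-08). Of 16 tested lipocalin genes, limma called 0 with selection in either line, with 0 at an unadjusted p below 0.05 in HTB56 and 1 in A549. In HTB56, 1 was called on the arrays compared, with array weights, or without A0R replicate 3 or H3R replicate 1. In H0R against A0R, 0 of the 16 were called higher and 4 lower (25%, beside 45.1% of all genes), so most were not called. RBP4, the retinol carrier of that family, was lower in H0R than in A0R, as LCN2 was, at a log2 difference of -2.35 (limma adjusted p = 2.86e-07; -2.56 without A0R replicate 2). Of 11 tested epithelial identity markers, KRT19 (1.14) and CLDN4 (1.03) rose and CDH1 fell by 0.85 in A3R against A0R, while EPCAM rose by 1.02 and KRT7 fell by 0.91 in H3R against H0R (limma adjusted p between 0.000278 and 0.00922). Of 14 tested lung epithelial markers, limma called 0 in either line, with 1 at an unadjusted p below 0.05 in A549 and 0 in HTB56. With the replicate block 1 of them was called in A549, as was 1 of 13 tested leukocyte markers, where limma without the block called 0 and 1 had an unadjusted p below 0.05. In HTB56, 1 lung epithelial marker was called with array weights or without H0R replicate 3.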
